A study of Mus musculus with 316 samples.

Results

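Endothelial cells of the 19-month-old mouse hippocampus were compared between a pos and a neg sorting gate: 129 of the 316 cells of the series, 62 from the pos gate and 67 from the neg gate. The cells were taken by their labels (age and gate), with no measured value used. They came from male C57BL/6 mice, with no transgene or treatment named, in 2 pools of hippocampi from 4 mice each; both gates were taken from each pool. Pool 1 gave 22 pos and 26 neg cells, and pool 2 gave 40 pos and 41 neg cells. The labels do not say which marker set the gate, but the series title names VCAM1, and Vcam1 reads are given first as a check of the gate labels. The remaining 187 cells, from 3-month-old mice of the same strain and gates, do not enter the main test of the gates. They enter the comparisons of the ages near the end and the alternative fits that are said to take in both ages. A pool, not a cell, was the replicate, so n = 2 per gate throughout, and no permutation of 2 pools against 2 can give a p under 0.05.

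Brain endothelial cells line arteries, capillaries and veins in sequence, and each stretch has its own gene programme. Capillary cells carry most of the transporters of the blood-brain barrier, arterial cells express Notch ligands and elastic-matrix genes, and venous cells carry many of the molecules that let leukocytes attach. VCAM1 is a surface receptor for leukocyte integrins, induced on endothelium by inflammatory cytokines through NF-kappaB, and it takes part in firm leukocyte attachment. Classical MHC class I genes are also known NF-kappaB and interferon targets.

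The cells were checked against the label. Of the 115 cells in which at least 1000 genes had a read, 115 had reads of Pecam1 or Cldn5. The 18-gene pan-endothelial list stood at 8.52 and 7.86 in the pos pools against 8.02 and 8.02 in the neg pools (mean over cells of the mean log2(CPM + 1), where CPM is the gene's reads per 1000000 reads of a cell, or of a sum scaled as described under processing). In summed reads that list was lower in the pos pools, with 38186 and 36024 CPM against 48539 and 45971 CPM, and 8 of its 18 members were higher in both neg pools and 1 in both pos pools. Markers of other cell types were unevenly present. The 9 microglial markers of the table summed to 204 and 87.9 CPM in the pos pools and 65.0 and 142 CPM in the neg pools, the 5 leukocyte markers to 145, 151, 70.8 and 52.6 CPM, and the 2 pericyte markers to 52.6, 25.2, 22.3 and 23.1 CPM. The oligodendrocyte, fibroblast and neuron lists were higher in both pos pools, mainly through Mal, Apod and Stmn2, whose values are given with those lists. By their levels 5 cells (1 and 2 in the pos pools, 0 and 2 in the neg pools) had a higher level of another cell type's list than of the pan-endothelial list, and 4 of these had under 1000 genes. Reads per cell had a median of 438261 (39 to 1050284), and the 4 sums of cells held 8953162 and 20745256 reads (pos) and 9361596 and 19457734 reads (neg). Pos cells had reads of more genes, 1838 ± 91.6 (SD, n = 2 pools) against 1513 ± 20.3, and 1740.45 ± 209.7 against 1503 ± 138 once each cell was thinned to 112934 reads. The part of this detection gap in the results was not tested; levels after thinning are given where they bear on a list.

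Vcam1 was the single gene to pass the test on the summed reads. Its level was 2470.0 CPM in pos pool 1 and 2267 CPM in pos pool 2, and no read fell in either neg pool. The gene (chromosome 3, 116109949 to 116129688, minus strand, GRCm38) had a read in 14 of 22 pos cells of pool 1 (63.6%, 95% Clopper-Pearson interval 40.7 to 82.8) and in 30 of 40 of pool 2 (75%, 58.8 to 87.3). In the neg gate it had a read in 0 of 26 and 0 of 41 cells, which allows shares of up to 11.5% and 7.32% by the limit of 3 cells of the total (the upper Clopper-Pearson bounds are 13.2% and 8.60%). Against a floor of 3 reads per neg sum, the pos level was at least 9954-fold higher (edgeR quasi-likelihood test, adjusted p = 0.0313 over 9438 genes). These intervals and floors cover counting error only, since reads without molecular identifiers are not independent molecules.

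Among the pos cells with a Vcam1 read, its level ranged from 12.1 to 7164 CPM (median 1985) in pool 1 and from 204 to 10738 CPM (median 1178) in pool 2. No pos cell held only 1 to 4 Vcam1 reads. The highest cell held 29.6% of the Vcam1 reads of pool 1 and 18.8% of those of pool 2. With the pool as a block in the model the log2 fold change was 18.05 and the adjusted p was 0.814, and with the spread shared across the 8 sums of both ages it was 18.53 with an adjusted p of 0.0508. In the edgeR test of all genes, 1 of 9438 passed (0.0106%) and 801 had an unadjusted p under 0.05. With the pool as a block 0 genes were called, and DESeq2 called 1174. With 2 pools per gate, a gene short of the test is not shown to be equal between the gates.

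**Figure D1:**
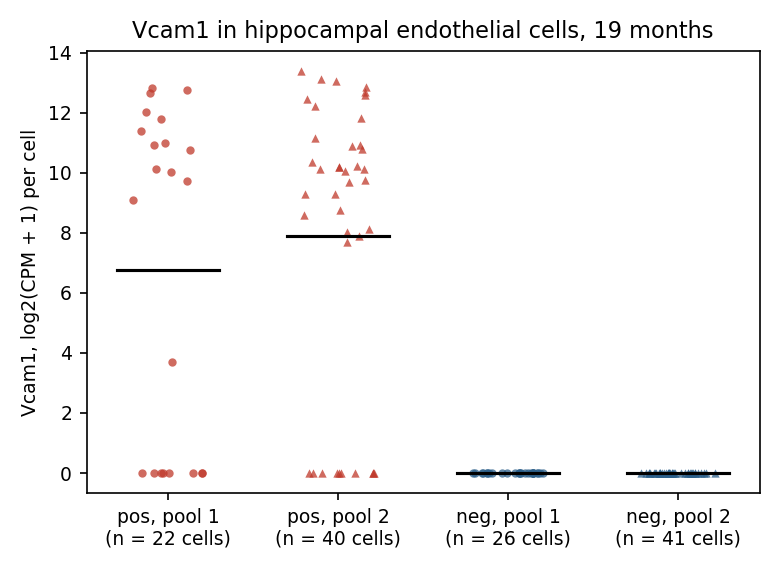
Vcam1 in each of the 129 cells at 19 months, as log2(CPM + 1), by gate and pool; black bars are means over cells. All cells of both neg pools lie at 0, while 14 of 22 and 30 of 40 pos cells lie above 0.

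Since 1 gene passed, the remaining genes are described by whether their pools were apart: both pos pools above both neg pools, or the reverse. This held for 2000 of the 9438 tested genes with the pos gate higher (21.2%) and for 1600 with the neg gate higher (17%), and the counts below are to be read against these shares. A second measure weighs each cell equally, as the mean over cells of log2(CPM + 1), tested with limma. It called 30 genes higher (0.318%) and 12 lower (0.127%) in the pos gate at an adjusted p under 0.05. This limma fit had no pool block, although both gates came from each pool, and its calls were not refitted with one. Another measure is the share of cells with a read: in 63 of 11463 genes (0.55%) both pos pools exceeded both neg pools by at least 20 percentage points, and in 15 (0.131%) the reverse held. In summed reads, more cells with a gene and more RNA of it per cell cannot be told apart, which is why shares stand beside the sums.

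Venous genes were higher in the pos gate. All 16 measured members of the venous list were higher in both pos pools than in both neg pools, with a median log2 fold change of 3.19 against 0.05 over all tested genes, and the mean list level per cell was 4.08 and 3.57 in the pos pools against 1.54 and 1.18 in the neg pools. None of the 16 passed the test on the sums; 5 passed limma on the cell means and 6 were apart in shares. The gap in list level was 2.47 log2 units, and 2.54 after thinning. This and the other lists were chosen with earlier results of these data known, so the counts are no independent result. Ier3, Ptgs2 and Il1r1 are also members of the NF-kappaB list, and Lcn2, Lrg1 and Ch25h of the chemokine and acute phase list.

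Vwf, the platelet-binding glycoprotein stored in endothelial granules, was at 1132 and 1495 CPM in the pos pools and 289 and 254 CPM in the neg pools. Its reads were found in 81.8% and 87.5% of pos cells and in 42.3% and 24.4% of neg cells (edgeR adjusted p = 0.232; limma on cell means, adjusted p = 0.000151). It thus had reads in most cells of each pos pool and in a minority of cells of each neg pool, and these pool shares did not overlap.

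Nr2f2, the transcription factor COUP-TFII that specifies venous identity, was at 72.0 and 101 CPM in the pos pools and 6.41 and 1.76 CPM in the neg pools. Its reads were found in 40.9% and 35.0% of pos cells against 3.85% and 2.44% of neg cells (limma on cell means, adjusted p = 0.038). Slc38a5, an amino-acid transporter of brain veins, stood at 1670.1 and 1506 CPM against 444 and 231 CPM. Lrg1, a secreted glycoprotein of venules, was at 536 and 852 CPM against 28.4 and 61.0 CPM, and 1 cell held 81.6% of the neg reads. Ephb4, the venous ephrin receptor, differed less, with 198 and 185 CPM against 116 and 46.6 CPM.

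Some venous genes were read in few pos cells and in almost no neg cell. Ackr1, the atypical chemokine receptor of venular endothelium, was at 282 and 747 CPM in the pos pools with no read in the neg pools, but only 4.55% and 10% of pos cells had a read and 1 cell held 49.7% of the reads. Icam1, a ligand for leukocyte integrins, was at 134 and 328 CPM against 0.107 and 0 CPM, with reads in 13.6% and 20% of pos cells and 53.8% of them in 1 cell. Ptgs2, the inducible cyclooxygenase, stood at 155 and 396 CPM with no read in either neg pool (at least 1157-fold higher against the 3-read floor). Ch25h, which makes 25-hydroxycholesterol, was at 202 and 629 CPM, again with no neg read (at least 1746-fold). These 4 genes had edgeR adjusted p-values of 0.232, so none of them passed the test, and for Ackr1 and Icam1 the single cell weighs heavily in the sum.

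Further venous members were higher in both pos pools by varied amounts. Il1r1, the interleukin-1 receptor, was at 579 and 286 CPM against 89.6 and 0 CPM, with reads in 54.5% and 32.5% of pos cells against 11.5% and 0% of neg cells. Ier3, an early response gene, stood at 771 and 918 CPM against 52.8 and 134 CPM (limma on cell means, adjusted p = 0.00326). Tmem252 was at 513 and 784 CPM against 123 and 239.6 CPM, Ctsc, a lysosomal protease, at 326 and 425 CPM against 245 and 87.0 CPM, and Lcn2, an iron-carrier-binding acute phase protein, at 57.3 and 244 CPM against 0 and 33.4 CPM. Tmsb10 showed the smallest gap of the list, with 188 and 180.3 CPM against 126 and 116 CPM.

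Arterial genes were also higher in the pos gate, though less uniformly. Of 23 measured members of the arterial list, 15 were higher in both pos pools and 1 (Fbln2) was higher in both neg pools, against backgrounds of 21.2% and 17%, with a median log2 fold change of 1.46. The list level per cell was 2.62 and 3.40 in the pos pools against 1.53 and 1.64 in the neg pools, a gap of 1.42 log2 units (1.40 after thinning).

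Cytl1, a small secreted cytokine-like protein, was at 479 and 784 CPM in the pos pools with no read in 67 neg cells. It had a read in 18.2% and 45.0% of pos cells (at least 2653-fold higher, edgeR adjusted p = 0.145; limma on cell means, adjusted p = 0.0116). Fbln5, an elastic-fibre protein, stood at 1158 and 906 CPM against 0.107 and 0.777 CPM, with reads in 22.7% and 30.0% of pos cells and 3.85% and 4.88% of neg cells (edgeR adjusted p = 0.145). When each cell was thinned to the same number of reads, Fbln5 passed the test (log2 fold change 11.25, edgeR adjusted p = 0.00656). Mgp, the matrix Gla protein that inhibits calcification, was at 1727 and 1639.5 CPM against 14.3 and 62.4 CPM, and 80.8% of the few neg reads lay in 1 cell (limma on cell means, adjusted p = 0.000163).

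Gkn3, a marker of brain arterial endothelium, was at 245 and 573 CPM against 43.0 and 59.5 CPM. Clu, the chaperone clusterin, was at 1598 and 2281 CPM against 0.107 and 159 CPM. In contrast Alpl and Nrp1, which are listed as arterial but found along the vascular tree, overlapped between the gates: Alpl stood at 616 and 736 CPM against 517 and 801 CPM. Hey1, a Notch target, overlapped too, with 88.6 and 168 CPM against 44.7 and 167 CPM.

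The arterial and venous levels were high in mostly different pos cells. To describe this, a limit was set, after the values were seen, at the 95th percentile of the neg cells with at least 1000 genes (3.86 for the arterial and 2.84 for the venous list level). Of the 58 pos cells with at least 1000 genes, 22 lay above the arterial limit alone, 28 above the venous limit alone, 2 above both and 6 above neither; in the neg gate the counts were 3, 3, 0 and 51 of 57, where 3 and 3 are set by the percentile. Pool 1 gave 5, 13, 1 and 2 pos cells and pool 2 gave 17, 15, 1 and 4, so venous-side cells were the larger group in pool 1 and arterial-side cells in pool 2. Of the pos cells, 2 lay within 0.25 of a limit. These are ranges of a level, not cell types. The cells of the gates thus differed in these ranges, and the part of this in the gaps of the lists below was not tested. Leaving out members shared between lists, as done below, does not take out this difference between the cells. A Vcam1 read was found in 20 of the 22 cells on the arterial side, 20 of the 28 on the venous side, 1 of the 2 above both and 2 of the 6 above neither.

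**Figure D2:**
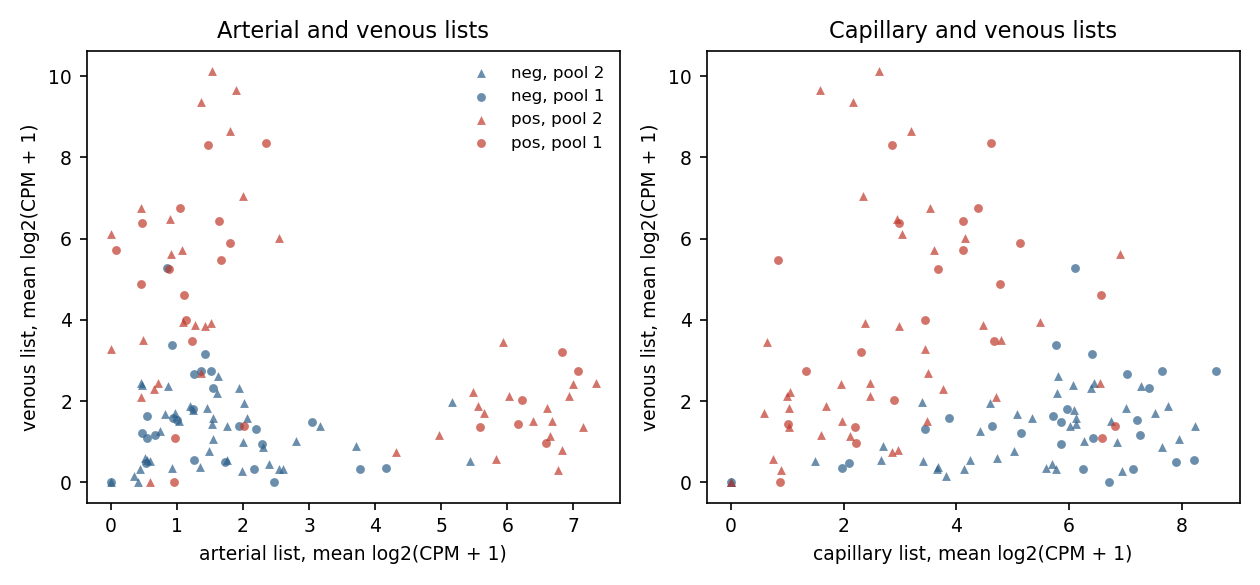
Each point is 1 of the 129 cells at 19 months; axes are the mean log2(CPM + 1) of the arterial, venous and capillary lists, colour is the gate and shape the pool. Pos cells form an arm of high venous level (up to 10.1) and an arm of high arterial level (up to 7.34), while most neg cells lie low on both and high on the capillary list (medians of 6.18 and 5.77).

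Capillary genes ran the other way. Of 19 tested members of the capillary list, 15 were higher in both neg pools and 2 (Cd93 and Net1) in both pos pools, with a median log2 fold change of -1.53. The list level per cell was 3.56 and 2.72 in the pos pools against 5.80 and 5.23 in the neg pools, a gap of -2.37 log2 units (-2.55 after thinning). None passed the test on the sums, while 6 passed limma on the cell means and 7 were apart in shares.

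Cxcl12, the chemokine that retains leukocytes at the barrier through CXCR4, was at 586 and 190.1 CPM in the pos pools and 4272 and 5552 CPM in the neg pools. It had a read in 92.3% and 90.2% of neg cells against 68.2% and 27.5% of pos cells (12.7-fold higher in neg, log2 fold change -3.66 ± 0.60 SE, edgeR adjusted p = 0.514; limma on cell means, adjusted p = 4.44e-06). Mfsd2a, the lysolipid transporter that restrains transcytosis, was at 75.8 and 70.1 CPM against 735 and 543 CPM (8.76-fold higher in neg, edgeR adjusted p = 0.232). Car4, a carbonic anhydrase on the capillary surface, was at 438 and 550.1 CPM against 1920.2 and 2242 CPM (4.21-fold, edgeR adjusted p = 0.232; limma on cell means, adjusted p = 0.000512). In each of these genes the lowest neg pool was well above the highest pos pool.

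Slco1c1, which carries thyroxine into the brain, stood at 687 and 761 CPM in the pos pools and 2847 and 2253 CPM in the neg pools. Rgcc, a cell-cycle regulator of capillary cells, was at 240.2 and 58.5 CPM against 829.8 and 771 CPM. Ddc, the decarboxylase that closes the barrier to levodopa, was at 21.2 and 59.8 CPM against 390.3 and 349 CPM, and Kdr, the main VEGF receptor, was at 171 and 85.6 CPM against 619.8 and 615 CPM. The exceptions were Cd93, at 624 and 697 CPM against 282 and 433 CPM, and Net1, at 649.7 and 530.4 CPM against 427 and 355 CPM. Lpl, the 20th member, was too low to be tested.

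Transporters of the barrier followed the capillary list. Of 29 tested members, 18 were higher in both neg pools and 1, the venous transporter Slc38a5, in both pos pools, with a median log2 fold change of -0.96. Without the 6 members that the capillary list also holds, 13 of 23 were higher in both neg pools and 1 in both pos pools. The median log2 fold change of these 23 was -0.545. The list level per cell was 4.16 and 3.61 in the pos pools against 5.40 and 4.75 in the neg pools.

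Bsg, the chaperone subunit of the monocarboxylate transporters, had a read in 100% of the cells of each pool, with 11892 and 10625 CPM in the pos pools and 23306 and 22394 CPM in the neg pools (2.03-fold higher in neg, edgeR adjusted p = 0.392; limma on cell means, adjusted p = 0.000262). Slc1a1, a glutamate transporter, was at 32.2 and 108 CPM against 420.0 and 559.9 CPM. Slc40a1, the iron exporter ferroportin, was at 777 and 448 CPM against 1648 and 1572 CPM, and Slc38a3, a glutamine transporter, at 106 and 257 CPM against 559.6 and 763 CPM. The glucose transporter Slc2a1 did not separate the gates: its pos pools, 8421 and 8171 CPM, lay between its neg pools, 9233 and 7713 CPM. The transporters therefore differed by uneven amounts.

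**Figure D3:**
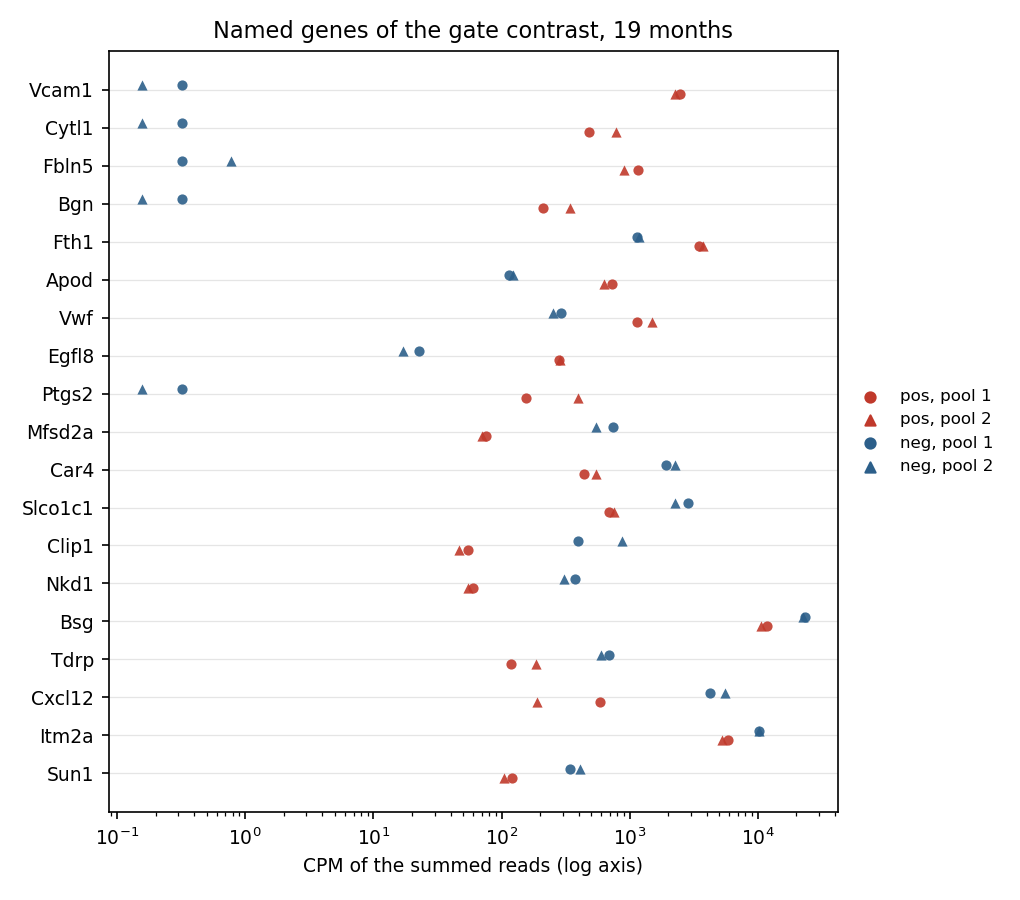
CPM of the summed reads (log axis) in each pos and neg pool for Vcam1, 8 further genes higher in pos and 10 higher in neg that the naming rule gave; values under 3 reads are drawn at the 3-read floor of that sum. Apart from Vcam1 these genes were short of an adjusted p of 0.05.

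Outside the vessel-segment lists, the genes with the smallest p included Fth1, the ferritin heavy chain that stores iron, at 3474 and 3752 CPM in the pos pools against 1137 and 1183 CPM in the neg pools (3.12-fold, edgeR adjusted p = 0.232). Apod, a secreted lipid carrier that the fibroblast list also holds, was at 729 and 633 CPM against 114 and 123 CPM, while Col3a1 and Ptgds, the other 2 members of that list, added little: the 3 members together summed to 752 and 651 CPM against 116 and 123 CPM. Bgn, the proteoglycan biglycan, was at 209 and 341 CPM with no read in the neg pools, and 46.8% of its reads lay in 1 cell. Egfl8, an epidermal growth factor-like protein, was at 280.4 and 284 CPM against 22.5 and 16.9 CPM. All 4 had an adjusted p of 0.232.

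On the neg side, Itm2a, a membrane protein of brain endothelium, was at 5834 and 5249.8 CPM in the pos pools against 10188 and 10178 CPM in the neg pools. Nkd1, an inhibitor and target of Wnt signalling, was at 60.2 and 54.8 CPM against 377 and 307 CPM, with reads in 9.09% and 12.5% of pos cells against 53.8% and 36.6% of neg cells. Clip1, a microtubule plus-end protein, stood at 55.0 and 46.6 CPM against 398 and 873 CPM. Tdrp was at 119 and 185 CPM against 692 and 595 CPM, and Sun1, a nuclear envelope protein, at 120.1 and 105 CPM against 342 and 413 CPM. Their edgeR adjusted p-values ran from 0.355 to 0.514, so these genes are named by rank and not as calls.

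MHC class I genes were higher in the pos gate over most of the pathway. Of 20 measured members, 15 were higher in both pos pools and 2 (Nlrc5 and Erap1) in both neg pools, with a median log2 fold change of 0.67; 3 passed limma on the cell means. The list level per cell was 4.68 and 4.82 in the pos pools against 3.37 and 3.26 in the neg pools (gap 1.44 log2 units, 1.34 after thinning).

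H2-K1, a classical class I heavy chain, was at 2957 and 3357 CPM in the pos pools against 1162 and 1504 CPM in the neg pools. It had a read in 90.9% and 92.5% of pos cells and in 61.5% and 58.5% of neg cells (2.37-fold, edgeR adjusted p = 0.514; limma on cell means, adjusted p = 0.000364). H2-D1, the second classical chain, was at 5908 and 6417 CPM against 3613 and 4014 CPM (limma on cell means, adjusted p = 0.0377), and H2-Q6, a non-classical chain, at 287 and 592 CPM against 54.4 and 73.4 CPM (limma on cell means, adjusted p = 0.00132). B2m, the shared light chain, was at 4205 and 3539 CPM against 2520.2 and 2403 CPM. Of the loading machinery, Tap1 was at 184 and 125 CPM against 27.6 and 38.4 CPM, and Psmb8, an immunoproteasome subunit, at 378 and 271 CPM against 139 and 146 CPM. Class I heavy chains are near-identical copies, so reads may be split between them and the value of any single H2 gene is uncertain.

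The letters of the kappaB consensus, the motif that NF-kappaB binds, were searched in the promoters of these lists. The consensus was taken on both strands in the 250 bases before each start in the RefSeq table (GRCm38.p6). It occurred in 8 of the 18 class I genes with an entry and in 8 of 18 genes of the NF-kappaB list. The share was 5.47% of the 7969 genes of the count table with an entry and 4.46% of all 27025 genes with one. It occurred in 2 of 14 venous genes (Ier3 and Il1r1), 1 of 18 arterial, 2 of 16 capillary and 1 of 20 transporter genes. In leukocyte adhesion genes it occurred in 0 of 8, and in chemokine and acute phase genes in 1 of 9. The NF-kappaB list was chosen as known targets and regulators, so its share is no independent result. The class I matches lay in B2m and in related heavy-chain copies (H2-D1, H2-K1, H2-M3, H2-Q4, H2-Q6, H2-Q7 and H2-T22), so they are not independent. The stretches below show the match, in capitals, with up to 25 bases on each side, 5′ to 3′ along the gene. They were chosen after the values were seen, from the matched genes that were higher in both pos pools. Others of these, among them H2-Q7, Nfkbia, Irf1 and Tnfaip3, are not printed. The H2-Q7 match spans 10 letters.
H2-K1, chr17:34000423-34000483, minus strand: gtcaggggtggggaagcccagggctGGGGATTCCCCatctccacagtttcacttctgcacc
H2-D1, chr17:35262898-35262958, plus strand: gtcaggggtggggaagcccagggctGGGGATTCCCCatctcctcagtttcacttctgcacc
H2-Q6, chr17:35424652-35424712, plus strand: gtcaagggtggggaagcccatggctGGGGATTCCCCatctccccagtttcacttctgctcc
B2m, chr2:122147536-122147595, plus strand: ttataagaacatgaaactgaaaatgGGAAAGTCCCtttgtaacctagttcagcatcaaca
Ier3, chr17:35821596-35821655, plus strand: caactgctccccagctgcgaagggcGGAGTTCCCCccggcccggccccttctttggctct
Il1r1, chr1:40266336-40266388, plus strand: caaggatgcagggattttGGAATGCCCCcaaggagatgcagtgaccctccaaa
The 3 heavy-chain genes share the same 11 capital letters, which hold overlapping matches on both strands, in nearly the same surroundings, 125, 171 and 173 bases before the start listed for H2-K1, H2-D1 and H2-Q6. A match is a description of the letters in this window; binding was not measured, and Vcam1 and Vwf had no entry in the table.

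The wider NF-kappaB list (targets and regulators) had 14 of 21 tested members higher in both pos pools and 1, Ripk2, higher in both neg pools, with a median log2 fold change of 1.56. Without Ier3, Ptgs2 and Il1r1, which the venous list also holds, 11 of 18 were higher in both pos pools and the median was 1.35. Nfkbia, the inhibitor that NF-kappaB itself induces, was at 1266 and 1559 CPM against 1000.3 and 1063 CPM. Bcl3, a nuclear member of the same inhibitor family, had 46.6 and 33.2 CPM and Tnfaip3, the feedback enzyme A20, 26.6 and 9.28 CPM, both with no read in the neg pools. Irf1 was at 305 and 328 CPM against 119 and 188 CPM. None of the list passed the test on the sums. The list level per cell was 2.16 and 1.85 in the pos pools against 1.05 and 0.91 in the neg pools. It was uneven among pos cells: the highest stood at 5.03 (pool 1) and 5.39 (pool 2), with venous levels of 8.36 and 10.1. Above the arterial limit the highest pos cells stood at 3.19 and 2.28. The part of single cells in the gap was not tested.

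Leukocyte adhesion molecules were divided between the gates. With Vcam1, 4 of 12 tested members were higher in both pos pools and 3 in both neg pools; without Vcam1, Icam1 and Ackr1, 1 of 9 was higher in both pos pools and 3 in both neg pools, with a median log2 fold change of 0.11. Cd34, a sialomucin of capillary endothelium, was at 1668 and 1333 CPM in the pos pools against 2562 and 2232 CPM in the neg pools. Pecam1, a junctional adhesion molecule of all endothelium, overlapped, with 1566 and 1655 CPM against 1640.5 and 1526 CPM. Icam2 overlapped as well.

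Chemokine and acute phase genes had 7 of 9 tested members higher in both pos pools, of which Lcn2, Lrg1 and Ch25h are venous members, and 1, Cxcl12, higher in both neg pools. Cebpd, an acute phase transcription factor, was at 189.8 and 423 CPM against 55.5 and 50.3 CPM, and Cx3cl1, the membrane-bound chemokine fractalkine, at 532 and 381 CPM against 198 and 111 CPM. The summed reads of the list were nonetheless lower in the pos gate, 2471 and 3077 CPM against 4903 and 6034 CPM. Cxcl12 held most of the neg reads of the list. The list level per cell was 2.23 and 1.86 in the pos pools against 1.53 and 1.46 in the neg pools. The highest pos cells stood at 6.26 (pool 1) and 6.90 (pool 2), with venous levels of 8.36 and 9.38. Interferon response genes were near the background, with 5 of 26 higher in both pos pools and 3 in both neg pools, and the list level differed by 0.90 log2 units in pool 1 and by 0.0046 in pool 2. Ifitm3, an antiviral membrane protein, was at 2324 and 1906 CPM against 1124 and 928 CPM.

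**Figure D4:**
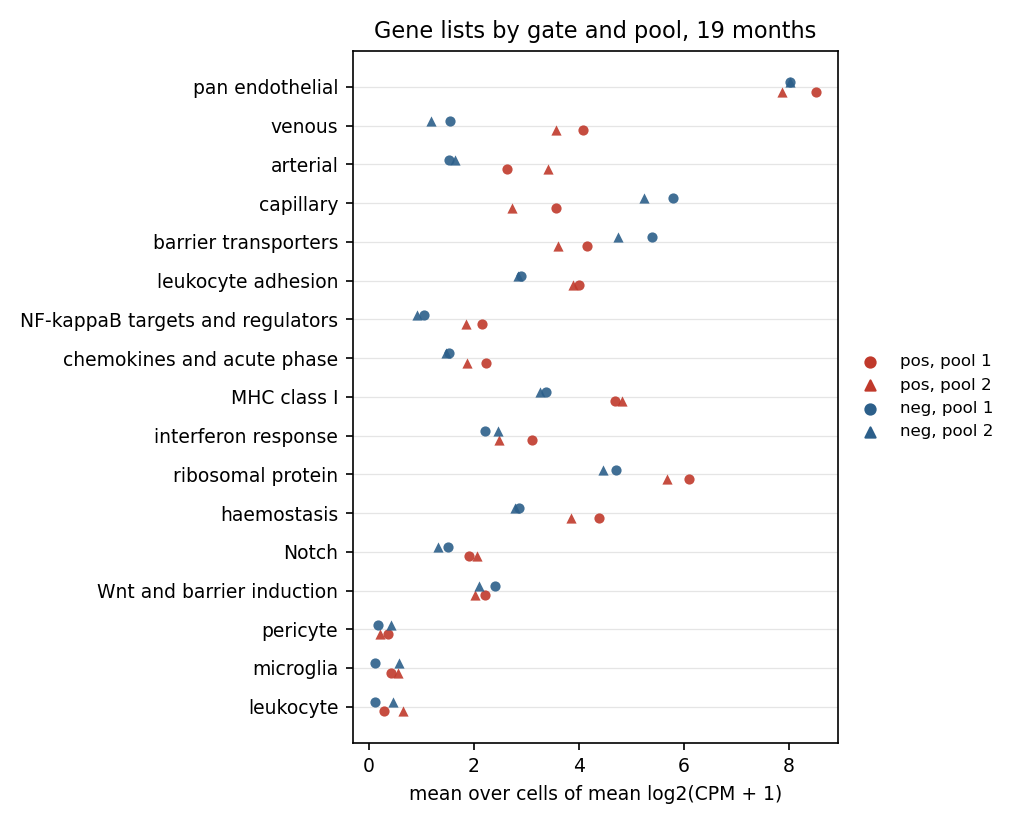
Mean over cells of the mean log2(CPM + 1) of each gene list, by gate (colour) and pool (shape). Venous, arterial and MHC class I levels are higher in both pos pools, capillary and transporter levels in both neg pools, and the pan-endothelial, pericyte, microglial and leukocyte levels overlap.

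Other pathways differed in part, and their lists share members with the vessel-segment lists. Of the Notch list, Dll4, Jag1 and Hey1 are also arterial members. Of the VEGF and angiopoietin list, Dll4, Nrp1, Unc5b and Vegfc are also arterial and Kdr and Cd93 also capillary members. In the haemostasis list, 5 of 14 members were higher in both pos pools and 1 in both neg pools. Without Vwf, a venous member, 4 of 13 were higher in both pos pools and 1 in both neg pools (median log2 fold change 0.265). Ptgis, the prostacyclin synthase, was at 251 and 103 CPM with no read in the neg pools (at least 745-fold higher, edgeR adjusted p = 0.355). Mmrn2, an endothelial matrix protein, was at 654 and 812 CPM against 504 and 441 CPM. In the Notch list, 6 of 12 were higher in both pos pools and 0 in both neg pools: Notch1 was at 266 and 228 CPM against 91.5 and 119.6 CPM, the ligand Dll4 at 71.9 and 166 CPM against 17.7 and 21.4 CPM, and the ligand Jag1 at 593 and 244 CPM against 157 and 148 CPM. The VEGF and angiopoietin list was divided, with 6 of 17 higher in both pos pools and 5 in both neg pools; Kdr, Flt1 and Flt4, the 3 VEGF receptors, were all on the neg side, Flt1 at 1958 and 2066 CPM against 3227 and 2992 CPM and Flt4 at 75.1 and 93.6 CPM against 305 and 159.9 CPM.

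The Wnt and barrier induction list was also divided, with 6 of 24 on each side and a median log2 fold change of -0.26. Nkd1 and Tnfrsf19, which are Wnt targets in brain endothelium, were higher in both neg pools (Tnfrsf19 at 73.6 and 121 CPM against 343 and 239 CPM), while Sox17, a transcription factor of arterial cells that is also downstream of Wnt, was higher in both pos pools at 1641 and 1135 CPM against 724 and 742 CPM. In the extracellular matrix list, 11 of 28 were higher in both pos pools and 8 in both neg pools. Fbln5 and Mgp led the first and Sparcl1 the second, at 1073 and 1296 CPM against 3045 and 2406 CPM. Of this list, Fbln2, Fbln5 and Mgp are also arterial members, and Hmcn1, Sparcl1 and Spock2 are also capillary members. Among caveolae and transcytosis genes, 5 of 12 were higher in both pos pools and 3 in both neg pools; the first include the caveolar coat gene Ptrf at 4381 and 4778 CPM against 2538 and 2593 CPM and Ehd4, a membrane-trafficking ATPase, at 309 and 455 CPM against 38.9 and 89.2 CPM. Tight and adherens junction genes had 2 of 19 higher in both pos pools and 8 in both neg pools, with a median log2 fold change of -0.13.

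Ribosomal protein genes were mostly higher in the pos gate. Of 84 tested, 60 were higher in both pos pools and 0 in both neg pools, with a median log2 fold change of 0.52, and the members together summed to 23957 and 22839 CPM in the pos pools against 16689 and 16073 CPM in the neg pools. Rpsa was at 385 and 449 CPM against 218 and 149 CPM; many ribosomal genes have processed copies, so single values are uncertain. The list level per cell was 6.10 and 5.67 against 4.70 and 4.47 (gap 1.30 log2 units, 1.18 after thinning). Nuclear genes of oxidative phosphorylation had 12 of 74 higher in both pos pools and 15 in both neg pools and a median of -0.01. Their level per cell was higher in both pos pools, at 3.86 and 3.56 against 3.35 and 3.09. After thinning these levels overlapped, at 3.98 and 3.60 in the pos pools against 3.77 and 3.24 in the neg pools. Genes encoded in mitochondrial DNA had 7 of 13 tested members higher in both pos pools and 0 in both neg pools, with a gap in level per cell of 0.52. Unfolded protein response genes had 7 of 16 higher in both pos pools and 1 in both neg pools; Hspa5, the chaperone BiP, was at 849 and 661 CPM against 297 and 525 CPM. Immediate early genes, which respond to tissue dissociation, had 2 of 23 higher in both pos pools and 6 in both neg pools. Their median log2 fold change was -0.02, but the list level per cell was 0.21 and 0.38 log2 units higher in the pos pools. The gaps of pools 1 and 2 were 0.048 and 0.24 after thinning, and -0.047 and 0.23 in cells with at least 1000 genes.

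Markers of several other cell types also differed with the gate, and their part in the results was not tested. Mal, the only abundant member of the oligodendrocyte list, was at 1635 and 1475 CPM in the pos pools against 638 and 585 CPM in the neg pools, with reads in 81.8%, 70.0%, 61.5% and 51.2% of the cells, while the 3 members together summed to 1649.8 and 1523 CPM against 666 and 610 CPM. Stmn2, the one member of the neuron list in the table and also a member of the arterial list, was at 538 and 282 CPM against 84.0 and 167 CPM. Of the smooth muscle list, with 3 members in the table, Mylk, a myosin kinase, was at 31.8 and 111 CPM in the pos pools against 13.9 and 23.8 CPM in the neg pools, with reads in 27.3% and 32.5% of pos cells against 3.85% and 4.88% of neg cells. That list stood at 0.75 and 0.91 per cell in the pos pools against 0.27 and 0.15 in the neg pools, while its summed reads overlapped, with 52.0 and 114 CPM against 58.2 and 23.8 CPM. In the fibroblast list both tested members, Apod and Ptgds, were higher in both pos pools, and the choroid plexus list had 1 of 2 tested members higher in both pos pools. The astrocyte list had 1 of 3 and the microglial list 1 of 5 tested members higher in both neg pools. Plvap, which marks fenestrated endothelium, had no read in any of the 4 sums. Leaving out the cells that resembled other types kept Vcam1 as the single call (adjusted p = 0.0335).

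By shares of cells, the 63 genes higher in the pos gate included genes of no list, named here after their values were seen. Cd9, a tetraspanin, had a read in 68.2% and 70.0% of pos cells against 23.1% and 31.7% of neg cells. Tmem176b was read in 54.5% and 55.0% against 15.4% and 9.76%, Litaf, a lysosomal regulator, in 54.5% and 42.5% against 7.69% and 9.76%, and Rfk, the riboflavin kinase, in 77.3% and 67.5% against 34.6% and 24.4%. Of the 15 genes higher in the neg gate, 7 are capillary members and 5 are transporter members, with Slc7a5 and Slco1c1 counted in both. Slc7a5, the large neutral amino-acid transporter, was read in 80.8% and 65.9% of neg cells against 40.9% and 25% of pos cells. After thinning, 52 and 20 genes met the same limits.

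**Figure D5:**
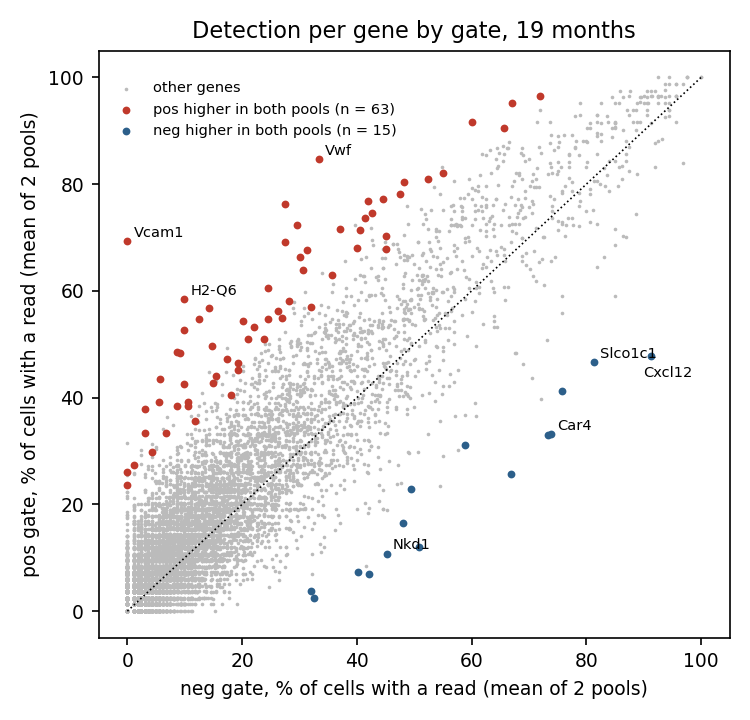
Share of cells with a read in the pos gate against the neg gate for each of 11463 genes (means of 2 pools, %); coloured genes differ by at least 20 percentage points between every pos and every neg pool. Vcam1 lies at 0% in the neg gate, and more genes are coloured on the pos side (63) than on the neg side (15).

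Whether the gate contrast at 19 months differed from that at 3 months was tested as an interaction over the 8 sums. No gene of 10571 passed (0.0%; edgeR), 560 had an unadjusted p under 0.05, and DESeq2 called 779. Among genes that met the naming conditions given under processing, the 5 with the smallest p were Atp2a3, Vcam1, Ctso, H2-Q6 and Lrg1. Those conditions include pools apart at 19 months, so these are not the smallest p of all genes. Vcam1 was at 643 and 782 CPM in the pos pools and 27.9 and 6.08 CPM in the neg pools at 3 months, against 2470.0 and 2267 CPM and no neg read at 19 months (interaction adjusted p = 0.294). Atp2a3, a calcium pump, was at 121 and 192 CPM against 52.2 and 41.2 CPM at 19 months and at 159 and 264 CPM against 0.0387 and 0.239 CPM at 3 months (adjusted p = 0.294). H2-Q6 had 185 and 129.7 CPM against 0.0387 and 0.287 CPM at 3 months, and its 19-month values were higher in both gates (adjusted p = 0.339). Ctso, a cysteine protease, was at 260.4 and 312 CPM in pos and 63.8 and 44.0 CPM in neg at 19 months, and at 116 and 163 CPM in pos and 285 and 348 CPM in neg at 3 months (adjusted p = 0.339).

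The segment lists had the same order of gates at both ages. The venous gap was 2.54 and 2.39 log2 units in the 2 pools at 19 months and 1.93 and 1.99 at 3 months, the arterial gap was 1.09 and 1.76 against 1.34 and 2.27, and the capillary gap was -2.23 and -2.51 against -1.98 and -2.31. The arterial ranges overlapped between the ages and the capillary ranges did too, while the venous ranges did not. These differences between the ages were not tested.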

How the data were processed

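Single endothelial cells were sorted from dissociated hippocampi and sequenced, 1 library per cell. The authors deposited whole-number read counts for 11463 genes and 316 cells, per the file headers; per the submitters' processing notes reads were aligned with Bowtie 0.12.2 to mm10 (GRCm38). The counting tool, annotation, use of strand and cell filters are each not given in sources used here; without strand, reads of overlapping antisense genes (Gm43109 at Vcam1, Gm47079 at Icam1, Agpat1 at Egfl8) cannot be told apart, and Cadm3 overlaps Ackr1. No other column was present, and no 2 cells held identical counts.

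From these counts the cells of each pool and gate were summed. CPM scales a gene's reads to the total of its sum. The main test was edgeR 4.0.16 (filterByExpr, TMM, quasi-likelihood) in R 4.3.3 over the 4 sums, with Benjamini-Hochberg adjustment over 9438 genes. Alternatives were limma 3.58.1 and DESeq2 1.42.0. The edgeR, DESeq2 and limma fits were run on simulated sums. No cells were simulated, so limma on cell means was not tested in this way. The labels take the pos and neg cells of a number from 1 pool of mice, which pairs the sums. The deviations of the paired sums correlated at only 0.0231 across genes. An edgeR fit with the pool as a block stands beside the main edgeR call, which it ends. Limma and DESeq2 were fitted without a block. The 2 pools per age measure the spread between pools of 4 mice. Doublets were not called. Gene positions are from GENCODE M21 (GRCm38), and promoters from RefSeq (GRCm38.p6).

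The members and lists were chosen with earlier results of these data known. Named genes were Vcam1; up to 12 per direction past the adjusted p with the largest fold change, filled to 10 by the smallest p, with at least 32 CPM in the higher gate, pools apart, reads in at least 10% of cells of each higher pool and at most 50% of reads in 1 cell; up to 4 members of each list by smallest p; and 5 genes of the interaction. Other members were added after their values were seen to describe lists in full. Alternatives were other scalings and filters, cells thinned to 112934 reads (58 and 58 cells kept), cells with at least 1000 genes, cells resembling other types left out, and each pool left out. A few genes that the rule gave are not reported here.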

Additional observations from a re-analysis of the deposited data

Results flagged for a closer look

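In 4 results the gate difference had one sign in both pools at 19 months and the other sign in both pools at 3 months. The Wnt and barrier induction list level was lower in the pos gate by an average of -0.129 log2 units at 19 months and higher by 0.256 at 3 months, a difference that was not tested. Ctso had an interaction log2 fold change of 3.57 (edgeR adjusted p = 0.339). Magi1, a junctional scaffold, had 14.6 and 9.47 CPM against 0 and 0.0518 CPM at 19 months and 1.61 and 0.798 CPM against 9.68 and 3.25 CPM at 3 months (interaction log2 fold change 10.8, adjusted p = 0.914). Sdf2l1, of the endoplasmic reticulum, had 22.8 and 10.3 CPM against no read at 19 months and 15.3 and 6.35 CPM against 33.6 and 40.3 CPM at 3 months (13.1, adjusted p = 0.914); both fitted values rest on sums with almost no reads. No test for a sample far from the others was possible with 2 pools per gate.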

How the results depend on the processing

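The count of 1 gene called between the gates at 19 months was also reached with RLE size factors, no filter on low counts, cells with at least 1000 genes and without cells resembling other types. It was 0 with the pool as a replicate block, 0 with the spread shared over the 8 sums, 0 by limma-trend on mean CPM, 2 (Vcam1 and Fbln5) in thinned cells, 42 by limma on cell means of log2(CPM + 1) and 1174 by DESeq2 (717 higher, 457 lower). It was 0 without replicate 1 and 0 without replicate 2; these fits took in the 3-month sums, so the lone pool of each gate is assumed to vary like those groups. The adjusted p of Vcam1 ranged from 9.675e-30 (DESeq2) to 0.814 (block). The interaction count of 0 became 779 with DESeq2 and was 0 in all other fits, the paired one included. Genes with a share apart ranged from 377 to 643 (pos higher) and from 80 to 115 (neg higher) when 1 pool was left out, and 27 were higher in neg among cells with at least 1000 genes. With log2(CPM + 10) the list gaps were 0.97 (arterial), 1.66 (venous) and -1.65 (capillary). The gap in genes per cell was 324.93, and 237.75 after thinning. Of 77 named genes refitted, Pdia4 alone turned, from 1.41 to -0.003023 without replicate 2 (2.85 without replicate 1). The cause of these shifts was not tested.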
